A study of Mus musculus with 12 samples.

Results

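The 7 genes described here are Elane, Prtn3, Mpo and Ctsg, which encode proteins of the primary (azurophilic) granules, Ms4a3, a membrane protein gene of granulocyte and monocyte precursors, and Cebpe and Gfi1, which encode transcription factors of the granulocyte lineage. They were found by symbol among the 23420 gene rows of the count table, and all 7 were there and passed the filter on low counts. The set was chosen by a rule that compares treated tibia with untreated femur and was selected on results of these same libraries, so the tibia and femur values of the 7 genes are given as a description, without p-values. The libraries came from macrophages sorted out of bone marrow nucleated cells of 2 C57BL/6 mice, numbered 7 and 19. Mesenchymal stromal cells (MSCs), fibroblast-like support cells of marrow, were applied to the tibia of each mouse, the femur was left untreated, and there were 3 libraries per bone and mouse, 12 in all. Treatment and bone therefore cannot be told apart, the sources used here do not give the route and time of the MSCs, the age of the mice or whether they carried leukaemia, which the series title names, and the labels do not say whether the 3 libraries of a bone come from separate sorts.

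Primary granules are the first granules that form in the neutrophil lineage, at the promyelocyte stage, and their genes are switched off again as the cell matures. Elane encodes neutrophil elastase, Prtn3 proteinase 3 and Ctsg cathepsin G, serine proteases that are trimmed to their active form by cathepsin C and stored on the proteoglycan serglycin. Mpo encodes myeloperoxidase, which makes hypochlorous acid from the hydrogen peroxide supplied by the NADPH oxidase. Monocyte precursors carry transcripts of the same granule genes at lower levels, and mature macrophages are not known for making them.

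The 4 granule genes moved together over the libraries. So did Ms4a3 (Pearson's r of 0.97 with Elane and 0.89 with Ctsg), but its sequence is not shown. The sequences just before the start sites of the 4 granule genes are given here. They are RefSeq promoter sequences on GRCm38.p6, the assembly that mm10 names, 250 bases each, written 5′ to 3′ on the strand of the gene and ending at the base before the start site. Capitals mark GAGGAA, the core letters of sites for PU.1, a factor of all myeloid cells.
Elane (chr10:79886062-79886311, plus strand): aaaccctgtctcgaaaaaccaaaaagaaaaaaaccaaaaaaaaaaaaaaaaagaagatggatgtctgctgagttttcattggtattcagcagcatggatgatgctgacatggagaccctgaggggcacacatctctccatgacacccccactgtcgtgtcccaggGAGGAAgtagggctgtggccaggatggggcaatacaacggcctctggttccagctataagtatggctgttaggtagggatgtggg
Prtn3 (chr10:79879417-79879666, plus strand): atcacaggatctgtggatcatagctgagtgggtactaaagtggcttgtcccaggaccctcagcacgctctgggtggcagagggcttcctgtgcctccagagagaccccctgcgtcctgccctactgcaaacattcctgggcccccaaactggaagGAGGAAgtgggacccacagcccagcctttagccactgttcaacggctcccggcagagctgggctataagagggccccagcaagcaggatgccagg
Mpo (chr11:87793534-87793783, plus strand): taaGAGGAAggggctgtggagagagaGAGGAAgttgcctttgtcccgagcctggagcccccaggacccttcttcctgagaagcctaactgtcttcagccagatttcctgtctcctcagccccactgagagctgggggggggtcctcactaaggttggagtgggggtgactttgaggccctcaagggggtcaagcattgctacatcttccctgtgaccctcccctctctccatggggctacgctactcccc
Ctsg (chr14:56102575-56102824, minus strand): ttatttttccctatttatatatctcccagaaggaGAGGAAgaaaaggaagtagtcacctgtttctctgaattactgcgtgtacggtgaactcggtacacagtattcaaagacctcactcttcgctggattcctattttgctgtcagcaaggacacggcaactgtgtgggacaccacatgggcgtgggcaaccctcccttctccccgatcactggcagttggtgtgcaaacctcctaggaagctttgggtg

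Windows from 250 bases before to 50 bases after the start were searched on both strands. GAGGAA was found once in the windows of Elane (first base at position -85 from the start), Prtn3 (-95), Ctsg (-216) and Ms4a3 (36, in the transcribed part), 2 times in that of Mpo (-247 and -224) and in neither window of Gfi1, against 28.3% of the 32851 windows of the table. The C/EBP letters TTGCNNAA were found in the windows of Ms4a3 and in 1 window of Gfi1 (10.8% of all windows), and the RUNX letters TGTGGT in that of Ctsg (16.8%). The MYB letters AACNG were found in the windows of Elane, Prtn3, Mpo, Ctsg and Gfi1 (80.3%), and the GFI1 letters AAATCA in 0 of them (14% of all windows). Elane and Prtn3 both hold AACGG on the strand of the gene, with its first base at -50 and -55. No match was a test of binding. In these searches 6 of the 7 genes had a window in the table. Prtn3 and Elane are neighbours on chromosome 10 (79879667 to 79883174 and 79886312 to 79888216), with 3137 bases and 0 other gene starts between them. Mpo lies on chromosome 11 (87793784 to 87804412), Ctsg and Cebpe on chromosome 14 (56099885 to 56102574 and 54710363 to 54712174), Ms4a3 on chromosome 19 (11629499 to 11640851) and Gfi1 on chromosome 5 (107716655 to 107725805).

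Library totals ran from 9773455 to 14869150 counts, and the 7 genes together took 0.0719 to 0.183% of a library's counts. Levels are given as CPM, which are counts scaled to a common library size. Summed over the 7 genes, the level was 726 to 762 CPM in the femur and 1041 to 1288 CPM in the tibia of mouse 7, and 1208 to 1510.3 and 1485 to 1834 CPM in those of mouse 19. The sum was thus lowest in the 3 femur libraries of mouse 7, and the tibia libraries of mouse 7 overlapped with no femur library of the same mouse. In mouse 19 the ranges of both bones overlapped. Fewer cells of a type and less RNA per cell cannot be told apart in such bulk libraries.

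Per kilobase of exon (RPKM, with the union of exons in GENCODE M21), Prtn3 and Elane were the most abundant of the 7, with 174 ± 45.6 and 173 ± 54.2 in the femur and 232 ± 30.5 and 242 ± 50.9 in the tibia (mean ± SD, n = 6 libraries). Mpo followed with 109 ± 45.3 and 149 ± 34.4, then Cebpe with 65.0 ± 13.8 and 70.4 ± 17.6 and Ctsg with 57.3 ± 26.0 and 75.5 ± 15.9. Ms4a3 stood at 22.3 ± 6.99 and 36.0 ± 9.60, and Gfi1 was lowest at 4.59 ± 1.32 and 5.79 ± 1.73. Prtn3 lay above Elane in 3 of 6 femur and 2 of 6 tibia libraries, and Cebpe above Ctsg in 4 of 6 and 2 of 6, so the order of these neighbours is not set. The other steps of the order held in 6 of 6 libraries of each bone.

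The 3 protease genes had log2 fold changes between bones that lay within 1 SE or little more of each other. In mouse 7, Elane stood at 124, 134 and 117 CPM in femur libraries 1 to 3 and at 207, 219 and 175 CPM in tibia libraries 1 to 3. In mouse 19 the values were 188, 209.7 and 248 CPM in the femur and 319.7, 263 and 242 CPM in the tibia. The bones did not overlap in mouse 7, and in mouse 19 femur library 3 lay above tibia library 3. Over both mice Elane averaged 170.1 ± 53.3 CPM in the femur and 238 ± 50.1 CPM in the tibia (n = 6 libraries each), a log2 fold change of 0.51 ± 0.07 (SE), tibia over femur with the mouse as a term. In mouse 7, Prtn3 stood at 222, 232 and 242 CPM in femur libraries 1 to 3 and at 378, 376 and 329 CPM in tibia libraries 1 to 3. Mouse 19 had 349, 361 and 405 CPM in the femur and 479, 438 and 408 CPM in the tibia. Here the tibia libraries lay above the femur libraries in both mice, in mouse 19 by a narrow margin. Prtn3 averaged 302 ± 78.9 CPM in the femur and 401 ± 52.9 CPM in the tibia, a log2 fold change of 0.44 ± 0.06.

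Ctsg, the gene of the third protease, differed between the animals. In mouse 7, Ctsg stood at 35.2, 33.7 and 37.5 CPM in femur libraries 1 to 3 and at 68.5, 73.4 and 55.2 CPM in tibia libraries 1 to 3. The libraries of mouse 19 held 71.5, 85.3 and 91.9 CPM in the femur and 103, 87.9 and 80.2 CPM in the tibia. Its tibia values were all above the femur values in mouse 7, whereas in mouse 19 femur library 3 was higher than 2 of the 3 tibia libraries. The averages were 59.2 ± 26.8 CPM in the femur and 78.0 ± 16.4 CPM in the tibia, a log2 fold change of 0.48 ± 0.11. Mpo, the peroxidase gene, showed the same arrangement. In mouse 7, Mpo stood at 241, 239.7 and 231 CPM in femur libraries 1 to 3 and at 437, 482 and 356 CPM in tibia libraries 1 to 3. For mouse 19 the levels were 443, 504 and 579.6 CPM in the femur and 701, 535 and 559.5 CPM in the tibia. In mouse 19 femur library 3 was above tibia libraries 2 and 3. Mpo averaged 373 ± 155 CPM in the femur and 512 ± 118 CPM in the tibia, a log2 fold change of 0.53 ± 0.09.

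Ms4a3, which encodes a tetraspan-like membrane protein and is used as a marker of granulocyte-monocyte progenitors, had the highest log2 fold change of the 7. In mouse 7, Ms4a3 stood at 27.6, 37.9 and 28.9 CPM in femur libraries 1 to 3 and at 53.8, 55.4 and 48.1 CPM in tibia libraries 1 to 3. Mouse 19 gave 45.7, 49.9 and 61.9 CPM in the femur and 94.0, 80.5 and 74.7 CPM in the tibia. The bones did not overlap in either mouse. Its averages were 42.0 ± 13.2 CPM in the femur and 67.7 ± 18.1 CPM in the tibia, a log2 fold change of 0.69 ± 0.08.

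The transcription factor genes had the lowest log2 fold changes of the 7. Cebpe encodes C/EBP epsilon, the factor needed for the step from promyelocyte to myelocyte and for secondary granules. In mouse 7, Cebpe stood at 66.0, 70.7 and 60.7 CPM in femur libraries 1 to 3 and at 72.2, 66.8 and 64.9 CPM in tibia libraries 1 to 3. The levels of mouse 19 were 96.1, 88.6 and 102 CPM in the femur and 109.9, 112 and 98.3 CPM in the tibia. The bones overlapped in both mice. Cebpe averaged 80.7 ± 17.2 CPM in the femur and 87.3 ± 21.9 CPM in the tibia, a log2 fold change of 0.10 ± 0.05. Gfi1 encodes a repressor that favours granulocyte over monocyte fate. In mouse 7, Gfi1 stood at 10.9, 14.9 and 10.1 CPM in femur libraries 1 to 3 and at 15.1, 14.8 and 13.1 CPM in tibia libraries 1 to 3. Those of mouse 19 were 15.8, 14.0 and 21.9 CPM in the femur and 27.5, 17.8 and 22.5 CPM in the tibia. These values overlapped in both mice as well. Gfi1 averaged 14.6 ± 4.20 CPM in the femur and 18.5 ± 5.53 CPM in the tibia, a log2 fold change of 0.33 ± 0.12.

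**Figure D1:**
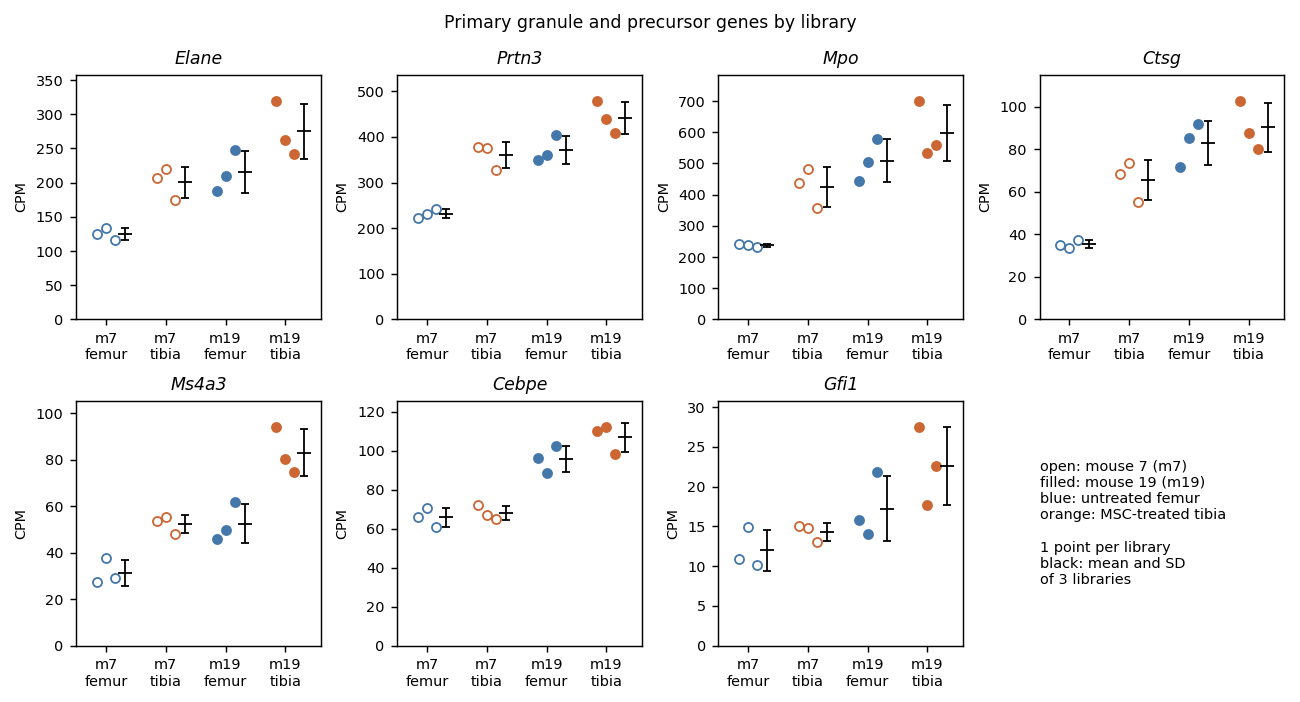
CPM of each gene (y axis, from 0) in the 12 libraries, by mouse and bone (x axis); points are libraries and black bars the mean and SD of 3 libraries. The femur libraries of mouse 7 are the lowest group for each gene by their mean, and the tibia libraries of mouse 19 the highest.

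In the edgeR quasi-likelihood test over the 12 libraries 5 of the 7 genes (Ms4a3, Elane, Prtn3, Mpo and Ctsg) were called higher in the tibia at an adjusted p under 0.05, and 0 lower, where 3.51% of the 11806 tested genes were called higher and 3.69% lower. With the 3 libraries of each mouse and bone added up, so that each animal counts once, Ms4a3, Elane and Prtn3 were called (0.407% of all genes higher, 0.144% lower). That count of 3 became 1 when 1 of these libraries was left out: mouse 7 tibia 3, femur 2 or femur 3, or mouse 19 tibia 2. It became 2 without mouse 7 tibia 1 or mouse 19 femur 2, and 5 without mouse 7 tibia 2 or femur 1. The median log2 fold change of the 7 was 0.48, against -0.00213 over all tested genes. Within mouse 7, 5 were called higher (4.37% of all genes), and within mouse 19 the genes Ms4a3, Elane and Prtn3 (2.96%). Since the set was selected on this contrast in these libraries, nothing is read from any of these counts or from the median.

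Whether the change between bones was the same in both animals is a separate contrast that the rule for the genes did not use. Earlier results of these data were known when the genes and tests were chosen. Each arm is 1 animal, so the p-values measure the spread between libraries of those animals. For Ctsg the log2 change was 0.89 ± 0.10 in mouse 7 and 0.12 ± 0.09 in mouse 19, a difference (mouse 19 minus mouse 7) of -0.77 ± 0.13 (edgeR adjusted p = 3.4e-04). For Mpo it was 0.84 ± 0.09 and 0.23 ± 0.08, a difference of -0.61 ± 0.12 (edgeR adjusted p = 0.0018). For Prtn3 it was 0.64 ± 0.06 and 0.25 ± 0.06, a difference of -0.39 ± 0.08 (edgeR adjusted p = 0.0026). The change of these 3 genes was smaller in mouse 19, and 4.74% of all tested genes passed this test in either direction. In DESeq2 the Mpo difference missed the threshold (adjusted p = 0.0629).

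The other 4 genes did not pass the test of that difference. Elane had 0.68 ± 0.09 in mouse 7 and 0.35 ± 0.08 in mouse 19, a difference of -0.33 ± 0.12 (edgeR adjusted p = 0.135). Elane passed when tibia library 3 of mouse 7 (0.0437), or from mouse 19 the first tibia (0.0160) or first femur library (0.0411), was left out. Ms4a3 had log2 changes of 0.73 ± 0.11 and 0.66 ± 0.10, a difference of -0.07 ± 0.14 (edgeR adjusted p = 0.875). Cebpe had a difference of 0.11 ± 0.10 (0.643) and Gfi1 of 0.14 ± 0.23 (0.847).

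The animals also differed in the untreated bone. In the femur all 7 genes were higher in mouse 19 than in mouse 7, where 14.1% of all tested genes were called higher. The log2 differences were 1.23 ± 0.10 for Ctsg (edgeR adjusted p = 3.0e-11), 1.10 ± 0.09 for Mpo (3.7e-11), 0.79 ± 0.09 for Elane (3.4e-08), 0.74 ± 0.11 for Ms4a3 (3.0e-06) and 0.68 ± 0.06 for Prtn3 (1.4e-10). Cebpe followed with 0.54 ± 0.07 (3.2e-07) and Gfi1 with 0.52 ± 0.16 (0.0161). Except for Gfi1, the 3 femur libraries of mouse 19 lay above all 3 of mouse 7. The share of all tested genes that lie apart in this way is not given here, so nothing is read from it. The Gfi1 call was lost when mouse 19 femur 3 (edgeR adjusted p = 0.209), mouse 7 femur 1 (0.0726) or mouse 7 femur 3 (0.0926) was left out, and in DESeq2 (adjusted p = 0.0793). With 1 animal on each side, these p-values measure the spread between libraries of those animals.

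In the treated tibia all 7 genes were again called higher in mouse 19 (7.22% of all genes), with log2 differences from 0.29 ± 0.06 for Prtn3 to 0.67 ± 0.10 for Ms4a3. Ctsg and Mpo, the genes farthest apart in the femur, differed by 0.46 ± 0.09 and 0.50 ± 0.09 in the tibia. The comparisons of bones and of mice use the same libraries, so these values are set side by side and are not separate evidence. Other marrow genes also differed between the femurs, in both directions. Of 22 tested cell cycle genes 22 were higher in mouse 19, of 14 secondary granule genes 12 were higher and 1 lower, and of 19 mature neutrophil genes 14 were higher and 2 lower. Of 11 monocyte markers 3 were higher and 8 lower in mouse 19 (median log2 difference -0.32), and of 16 macrophage markers 4 were higher and 6 lower (median -0.15). The share of all tested genes called lower in the femur of mouse 19 is not given here, so nothing is read from the lower counts. Summed secondary granule levels were 18044 to 19262 CPM in the femur and 17524 to 18383 CPM in the tibia of mouse 7, and 23689 to 25942 and 24339 to 25968 CPM in those of mouse 19. Their part in the difference between the mice was not tested.

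**Figure D2:**
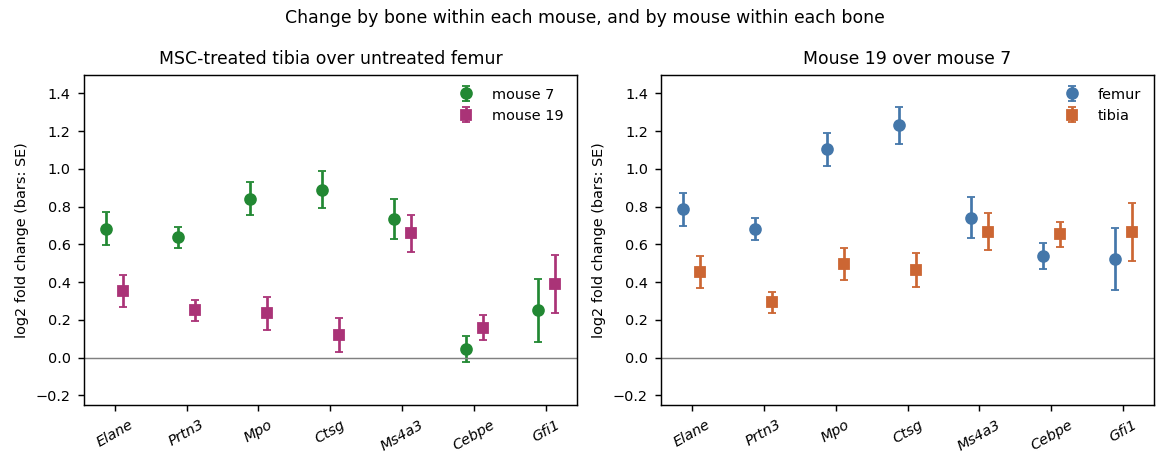
Log2 fold change with its SE for each gene: tibia over femur within mouse 7 (circles) and mouse 19 (squares) on the left, and mouse 19 over mouse 7 within the femur (circles) and the tibia (squares) on the right. For Ctsg, Mpo and Prtn3 the change between bones is larger in mouse 7 and the gap between mice larger in the femur; Ms4a3, Cebpe and Gfi1 lie close together in both panels.

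The levels of the 7 genes varied together from library to library. Over the 12 libraries Pearson's r of log2 CPM between 2 of the genes ran from 0.76 (Prtn3 and Cebpe) to 0.99 (Mpo and Ctsg) over 21 pairs, with a median of 0.89. After each library was centred on the mean of its own mouse and bone, r ran from 0.25 (Ctsg and Cebpe) to 0.93 (Elane and Mpo), with a median of 0.71. These are descriptions over libraries of 2 animals that share the group structure and, when centred, the group means. Within the femur of mouse 19, library 3 had the highest value of all 7 genes. In the tibia of mouse 19, library 1 was highest for 6 genes, and in the tibia of mouse 7, library 3 was lowest for all 7.

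**Figure D3:**
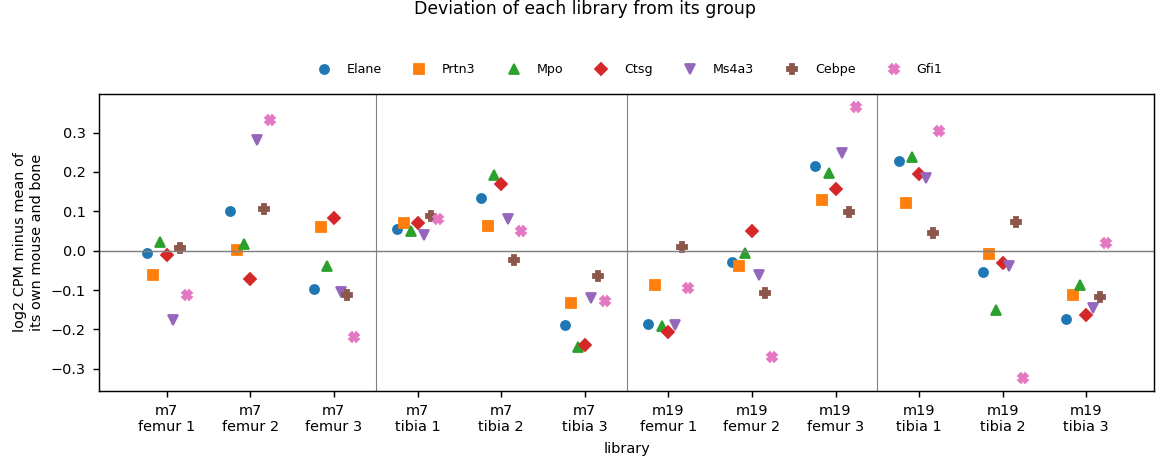
Deviation of log2 CPM (y axis) of each gene from the mean of the 3 libraries of its own mouse and bone, for the 12 libraries (x axis). The markers of most genes move to the same side within a library, as in femur library 3 of mouse 19, where all 7 lie above 0, and tibia library 3 of mouse 7, where all 7 lie below it.

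The mix of the 7 transcripts was not the same in each group. For 1 Mpo count there were 0.263 to 0.295 Cebpe counts in the femur of mouse 7, 0.138 to 0.182 in its tibia, 0.176 to 0.217 in the femur of mouse 19 and 0.157 to 0.209 in its tibia. The femur of mouse 7 lay apart from the other groups here. Elane counts per Mpo count were 0.505 to 0.558 in the femur of mouse 7, 0.455 to 0.493 in its tibia, 0.416 to 0.428 in the femur of mouse 19 and 0.432 to 0.491 in its tibia. Ctsg counts per Mpo count lay between 0.141 and 0.169 over all 12 libraries. These ratios are between counts of genes of different length and compare libraries, not genes.

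The 10 genes whose log2 CPM followed the mean standardised level of the 7 most closely over the 12 libraries (Pearson's r) were picked from 9546 other genes with at least 5 CPM. They were Tfdp1 (r = 0.97), the partner of E2F cell cycle factors, Igfbp4 (r = 0.97), which binds insulin-like growth factors, Fcnb (r = 0.96), a lectin of myeloid precursors, and Emilin1 (r = 0.96), a matrix glycoprotein gene. Ankrd28 (r = 0.96), Mgst2 (r = 0.96), a glutathione transferase gene, Nucb2 (r = 0.96), Hmgn2 (r = 0.96), a nucleosome-binding protein gene, Ppapdc1b (r = 0.96) and Gpr84 (r = 0.95), a receptor for medium-chain fatty acids, completed them. Fcnb had a log2 fold change between bones of 0.31 ± 0.05 and Igfbp4 of 0.42 ± 0.08. The 7 were selected on the contrast of bones, so such changes in genes picked by likeness are not separate evidence. With values centred within mouse and bone, the closest genes included Tfdp1 (r = 0.93), Dgat1 (0.93), Rpp21 (0.89) and Fam49a (0.89), so Tfdp1 was on both lists. These likenesses rest on 12 libraries of 2 animals and are descriptions.

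Other genes of primary granules moved in part with the 7. Of 17 tested genes of this list 5 were higher and 2 lower in the tibia, with a median log2 fold change of 0.06. Cst7, the gene of cystatin F, an inhibitor of cathepsin C, rose from 10.3 ± 3.57 to 14.95 ± 3.07 CPM (log2 change 0.56 ± 0.10, edgeR adjusted p = 0.0013, 0.105 per animal). Prss57, which encodes a further serine protease of the primary granules, rose from 8.88 ± 2.55 to 12.4 ± 3.14 CPM (log2 change 0.47 ± 0.11, edgeR adjusted p = 0.0107, 0.168 per animal). Cd63, a tetraspanin gene of granule and lysosome membranes, rose from 39.8 ± 11.5 to 49.4 ± 15.4 CPM (log2 change 0.31 ± 0.06, edgeR adjusted p = 0.0033, 0.0839 per animal). Srgn, the serglycin gene, rose from 233 ± 33.7 to 276 ± 18.0 CPM (log2 change 0.25 ± 0.06, edgeR adjusted p = 0.0145, 0.378 per animal), with 4 of 6 tibia libraries above the femur mean of their own mouse. It changed by -0.01 within mouse 7 against 0.51 within mouse 19, a difference that passed (edgeR adjusted p = 1.3e-06). On sums per animal, the second p given for each gene, 0 of the 17 were called, and Cd63 came closest. With no mouse term in the fit 0 of the 17 were higher and 0 lower.

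Among 19 tested transcription factor genes of myeloid precursors 1 was higher and 1 lower (median -0.01). Id2, an inhibitor of helix-loop-helix factors, rose from 78.6 ± 6.80 to 88.0 ± 12.6 CPM (log2 change 0.16 ± 0.04, edgeR adjusted p = 0.0196, 0.415 per animal), and Cebpa, which encodes C/EBP alpha, the factor that starts the granulocyte-monocyte programme, fell from 154 ± 11.1 to 141 ± 14.3 CPM (log2 change -0.13 ± 0.03, edgeR adjusted p = 0.0187, 0.452 per animal). The higher count was 2 without femur library 1 and 0 without femur library 2 of mouse 19. Leaving out tibia library 2 of mouse 19 brought the lower count to 0, and it was 2 without mouse 7 tibia 2, mouse 7 femur 3 or mouse 19 tibia 3. With no mouse term in the fit 0 were higher and 0 lower. Irf8 and Klf4, which favour monocyte fate, and Myb, a factor of dividing progenitors, did not pass between bones (log2 -0.10, -0.17 and 0.11). They passed the test of the difference between the mice (edgeR adjusted p = 9.6e-04, 0.0011 and 0.023), each with the lower change in mouse 19. These 3 genes were named after their values were seen.

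Of 23 tested markers of progenitors and early neutrophil precursors 5 were higher and 2 lower (median 0.03). Dmkn, the gene of a secreted protein known from skin, rose from 8.27 ± 2.81 to 19.6 ± 3.67 CPM (log2 change 1.27 ± 0.11, edgeR adjusted p = 5.2e-08, 4.0e-04 per animal), in 6 of 6 tibia libraries. Mgst2 rose from 15.5 ± 5.10 to 19.9 ± 4.83 CPM (log2 change 0.38 ± 0.08, edgeR adjusted p = 0.0054, 0.177 per animal), and Prom1, the gene of the progenitor antigen CD133, rose from 26.0 ± 3.51 to 33.4 ± 7.33 CPM (log2 change 0.34 ± 0.08, edgeR adjusted p = 0.0092, 0.196 per animal). Fcnb, named here because its level followed the 7 genes, rose from 136 ± 27.8 to 169 ± 37.5 CPM (log2 change 0.31 ± 0.05, edgeR adjusted p = 6.1e-04, 0.0399 per animal). Fcnb and Mgst2 followed the 7 genes, which were selected on the contrast of bones, so their p-values between bones are not separate evidence. Flt3, a growth factor receptor gene of early and dendritic progenitors, fell from 22.8 ± 1.70 to 18.3 ± 2.4996 CPM (log2 change -0.31 ± 0.08, edgeR adjusted p = 0.0267, 0.253 per animal). Kit and Cd34, the usual markers of early progenitors, stood at 11.4 and 6.28 CPM in the femur and at 12.3 and 5.88 CPM in the tibia, and did not pass (edgeR adjusted p = 0.577 and 0.794). When mouse 7 tibia 1, tibia 3, femur 2 or femur 3 was left out, 0 were lower, and when mouse 7 tibia 2, mouse 7 femur 1, mouse 19 tibia 3 or mouse 19 femur 3 was left out, 1 was lower. A fit without the mouse term gave 1 higher and 0 lower.

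Later stages of the neutrophil lineage did not move in 1 direction. Of 14 tested secondary granule genes 3 were higher and 4 lower (median -0.02). Camp, the cathelicidin gene, rose from 1067 ± 211 to 1256 ± 273 CPM (log2 change 0.23 ± 0.05, edgeR adjusted p = 0.0034, 0.114 per animal), whereas Chi3l3, a chitinase-like protein gene that macrophages also express, fell from 6432 ± 624 to 5611 ± 447 CPM (log2 change -0.20 ± 0.02, edgeR adjusted p = 9.7e-06, 0.196 per animal). Olfm4, a gene of a neutrophil subset, fell from 51.2 ± 6.73 to 41.0 ± 2.78 CPM (log2 change -0.31 ± 0.07, edgeR adjusted p = 0.0049, 0.178 per animal), and Ceacam10 fell from 12.7 ± 3.41 to 10.02 ± 3.04 CPM (log2 change -0.35 ± 0.10, edgeR adjusted p = 0.0394, 0.34 per animal). Here 2 were lower when mouse 7 tibia 2, tibia 3, femur 1 or femur 2 was left out. Of 19 tested tertiary granule and mature neutrophil genes 7 were higher and 3 lower (median 0.12). Within mouse 7 the counts were 2 higher and 5 lower (median -0.02), within mouse 19 they were 6 and 1 (median 0.22), and 5 genes passed the test of the difference between the mice, Il1r2 (edgeR adjusted p = 0.0082) and Mmp9 (0.0151) among them. Il1r2, the interleukin-1 decoy receptor gene, rose from 24.2 ± 2.23 to 36.2 ± 6.50 CPM (log2 change 0.57 ± 0.09, edgeR adjusted p = 3.2e-04, 0.0695 per animal), and Trem1, an activating receptor gene of neutrophils and monocytes, rose from 37.1 ± 7.04 to 50.8 ± 4.89 CPM (log2 change 0.46 ± 0.08, edgeR adjusted p = 8.8e-04, 0.0521 per animal). Mmp9, the gelatinase gene of tertiary granules, fell from 422 ± 98.2 to 337 ± 111 CPM (log2 change -0.36 ± 0.04, edgeR adjusted p = 1.8e-05, 0.0399 per animal), and Retnlg, a resistin-like gene, fell from 521 ± 122 to 436 ± 138 CPM (log2 change -0.29 ± 0.05, edgeR adjusted p = 5.4e-04, 0.0745 per animal). Of 6 genes of the NADPH oxidase 1 fell and 0 rose, Cybb, the gene of its catalytic subunit, from 2292 ± 67.5 to 2112 ± 83.7 CPM (log2 change -0.12 ± 0.03, edgeR adjusted p = 0.0136, 0.494 per animal).

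**Figure D4:**
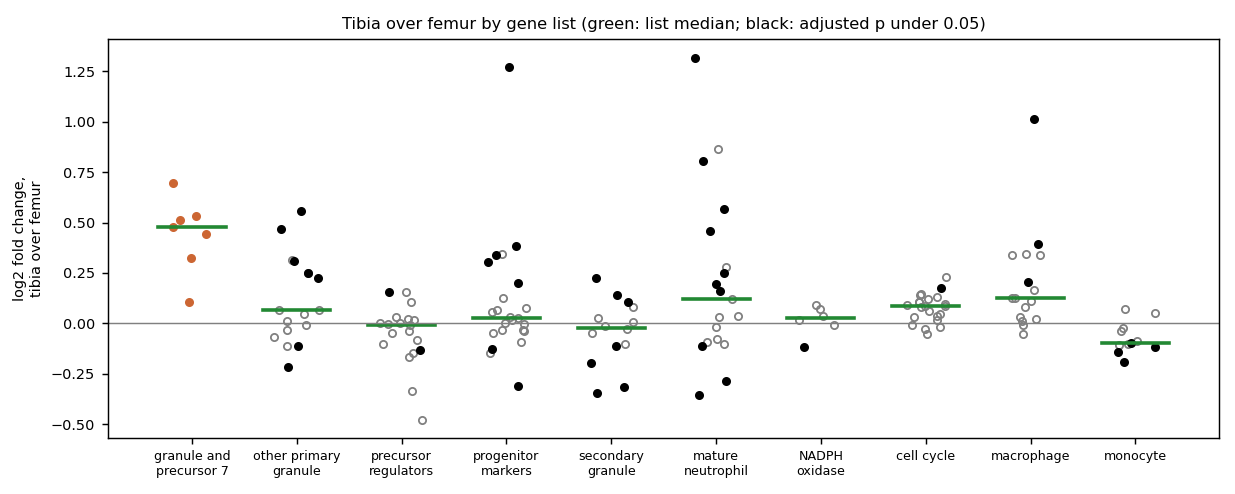
Log2 fold change, tibia over femur (y axis), of each tested gene in 10 gene lists (x axis); black points have an edgeR adjusted p under 0.05, grey open points do not, the 7 genes of the set are orange and carry no test, and green lines are list medians. The other list medians run from -0.10 for monocyte markers to 0.12 for macrophage and mature neutrophil genes; the place of the 7 genes, with a median of 0.48, follows from how they were selected.

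The labelled cell type was checked against markers. Of 16 macrophage markers 16 were tested, with a summed level of 3868 to 3959.8 CPM in the femur and 3696 to 3767 CPM in the tibia of mouse 7, and 3253 to 3349.7 and 3659 to 3783 CPM in those of mouse 19. Itgam and Csf1r were the leading genes of this sum (1562 and 946 CPM in the femur), so it mostly follows them. In the tibia 3 of the 16 macrophage markers were higher and 0 lower over both mice. Within mouse 7, 2 macrophage markers were higher and 2 lower (median -0.0086), and within mouse 19, 9 were higher and 0 lower (median 0.32). Mertk, the gene of a receptor for dead cells, rose from 4.78 ± 0.754 to 9.77 ± 1.51 CPM (log2 change 1.01 ± 0.13, edgeR adjusted p = 2.9e-05, 0.0163 per animal). Monocyte markers (11 tested, 0 higher and 4 lower) summed to 17495 to 17995 CPM in the femur and 16440 to 17038 CPM in the tibia of mouse 7, and 16770 to 17797 and 15553 to 16286 CPM in those of mouse 19. Fn1 was the leading gene of the monocyte list (8575 CPM in the femur). The secondary granule list, given above, summed to more than the macrophage list in each library, with Chi3l3, Ngp and Ltf as its leading genes (6432, 5301 and 2725 CPM in the femur). Eosinophil, basophil and mast cell markers (0 higher and 3 lower of 15) summed to 208 to 236 CPM in the femur and 198 to 267 CPM in the tibia of mouse 7, and 466 to 549.5 and 354 to 439 CPM in those of mouse 19, with the mast cell protease genes Cma1, Mcpt4 and Tpsb2 at 0 counts in the 12 libraries. Erythroid and megakaryocyte markers (1 higher and 3 lower of 12 tested, the globin rows Hba-a1, Hba-a2, Hbb-b1 and Hbb-b2 at 0 counts) summed to at most 115 CPM. The globin row Beta-s of that list was not at 0 and fell from 33.4 ± 8.78 to 21.1 ± 5.35 CPM (log2 change -0.67 ± 0.10, edgeR adjusted p = 8.5e-05, 0.0029 per animal). Dendritic cell markers (0 and 3 of 7) summed to at most 117 CPM, lymphoid markers (0 and 0 of 9 tested) to at most 51.6 CPM and stromal markers (0 and 0 of 6 tested) to at most 22.8 CPM. In the cell cycle list 1 of 22 genes, Rrm2, was higher over both mice and 0 lower (median 0.09). Within mouse 7, 17 were higher and 0 lower (median 0.22), and within mouse 19, 0 were higher and 3 lower (median -0.07). In the test of the difference between the mice, 17 cell cycle genes passed with the lower change in mouse 19, like Ctsg, Mpo and Prtn3. Other lists differed too: 7 macrophage markers passed with the higher change in mouse 19, and monocyte markers went both ways (5 higher and 2 lower). The share over all tested genes was 4.74%. The part of any of these lists in the change of Ctsg, Mpo and Prtn3 was not tested.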

How the data were processed

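The deposited table gives raw read counts per gene for 12 libraries, in whole numbers with no sign of scaling. The submitters' processing notes name the build mm10 and the tools bcl2fastq, HISAT2, featureCounts, Subread and DESeq2; the sources used here do not give settings, strand or annotation. All 12 columns matched a sample title. Among counts of 1 to 10, 69.8% were even, and halved counts were tried as an alternative because the 2 ends of a read pair may each be counted. No libraries of 1 mouse and bone agreed within sampling noise (on halved counts their chi-square per gene was 1.39 to 3.25), so each was kept.

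The main tool was edgeR 4.0.16 under R 4.3.3 (TMM scaling, filterByExpr with a minimum count of 10 over the 4 groups, quasi-likelihood test, two-sided, Benjamini-Hochberg adjusted p under 0.05 over 11806 genes). The bone comparison had the mouse as a term; comparisons within and between mice used 1 mean per mouse and bone. A second fit used the sum of the 3 libraries of each mouse and bone, for the same genes. The share of all genes called lower is given for the comparison of bones over both mice only. It is not given within a mouse or between mice. The p-values over libraries measure the spread between libraries, which may be technical. SEs are the absolute log2 change over the square root of F. Log2 CPM used a prior count of 2. DESeq2 1.42.0 was an alternative, and the tests were tried on simulated data. The lowest count of any of the 7 genes in a library was 137. Other alternatives were DESeq2 size factors, other filters, a replicate block, no mouse term and each library left out.

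The 7 genes, the 15 gene lists (232 symbols, 229 matched, 7 under another symbol, 200 tested; Ly6g was not matched) and the tests were chosen with earlier results of these data known. In each list the text names up to 4 tested genes with an adjusted p under 0.05 and at least 5 CPM in the higher bone, by size of change. Fcnb was named through the likeness rule, and Irf8, Klf4, Myb, Kit, Cd34, Beta-s, Ngp, Ltf, Itgam and Csf1r were named outside these rules, after their values were seen. A gene that the likeness rule picked is not reported here.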

Additional observations from a re-analysis of the deposited data

Results flagged for a closer look

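For 3 of the 7 genes the change between bones differed between the animals by a test of that difference. Of all tested genes 4.74% passed this test in either direction. In Ctsg the log2 change in mouse 19 minus that in mouse 7 was -0.77 (edgeR adjusted p = 3.4e-04), in Mpo -0.61 (0.0018) and in Prtn3 -0.39 (0.0026). When 1 library at a time was left out, the adjusted p ran from 4.8e-05 to 0.0027 for Ctsg, from 8.0e-05 to 0.0131 for Mpo and from 6.1e-04 to 0.0171 for Prtn3. In DESeq2 the Mpo difference did not pass (adjusted p = 0.0629). The tibia was higher in 3 of 3 libraries of mouse 7 than in any of its femur libraries for all 3 genes. That also held for Ms4a3 and Elane, which did not pass the test of the difference. In mouse 19 the bones lay apart for Prtn3 and Ms4a3. The share of all tested genes that lie apart in this way is not given here. Since the 7 were selected on the contrast of bones, nothing is read from it. Each arm of the difference between the animals is 1 animal.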

How the results depend on the processing

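The log2 fold changes of the 7 genes between bones kept their sign in all alternatives run and moved by less than 1 SD between libraries. Leaving out 1 library at a time, 3 or 4 of the 7 differed between the mice in their change and 6 or 7 between the femurs. With all libraries in, 4.74% of all tested genes passed the first of these tests, and 14.1% were called higher in the femur of mouse 19. With the library number as a replicate block, 316 genes were higher and 325 lower (414 and 436 without), 3 of the 7 differed between the mice, and the lower count among progenitor markers was 1. Same-numbered libraries share only a number: their deviations from the group means had r of -0.05 to 0.000594 over 6 pairs, and 0 libraries correlated best with their own number. That block changed no other count by over 1.5 times. With no filter on low counts, the transcription factor list held 2 higher and 2 lower genes, and on sums per animal 142 genes were higher and 74 lower, 5 of the 7 among the higher. Over libraries the unfiltered edgeR fit estimated an infinite prior degree of freedom, so each gene's own spread was not used. Its p-values can be too small for genes with a wide spread and too large for genes with a narrow one. With no mouse term 50 genes were higher and 24 lower. The other primary granule list then held 0 higher and 0 lower, the transcription factor list 0 and 0, and the progenitor list 1 and 0. The cause was not tested. Leaving out 1 library at a time, between 284 and 498 genes were higher and between 279 and 490 lower (279 without tibia library 3 of mouse 7, 283 without tibia library 2 of mouse 19). The other primary granule list held 5 higher and 2 to 3 lower, the transcription factor list 0 to 2 higher and 0 to 2 lower, and the progenitor list 5 to 6 higher and 0 to 2 lower. On sums, 9 to 137 genes were higher and 2 to 57 lower, and 1 to 5 of the 7 were called. The 7 were selected on the contrast of bones, so nothing is read from how many of them were called in it.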
